A study of Mus musculus with 6 samples.

Results

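The reproductive homeobox (Rhox) genes are a cluster of homeobox transcription factor genes on the mouse X chromosome. Rhox5, Rhox6, Rhox9 and Rhox13 were followed here, 4 of the 18193 genes that have a probe set annotated to a single symbol. Every probe set annotated to these genes was taken. Each gene had 1, and no other probe set in the annotation carried a Rhox symbol. The reference gene table lists 42 Rhox genes, 33 of them protein-coding, so the other 38, among them the multicopy Rhox2, Rhox3 and Rhox4 genes, were not analysed here.

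Expression was measured on 6 arrays, from 3 clones of mouse embryonic stem cells with a 129/B6 hybrid strain background. Clones 3086 and 3087 carry a knockdown of Yaf2, labelled as a Yaf2 mutant (Yaf2kd), and clone 3031 is wild type for Yaf2 (Yaf2wt). Cells with OHT (OHT+) were depleted of Rybp by 24 hours in 4-hydroxytamoxifen at 0.8 µM, and OHT- cells went without it. Cells were grown with LIF on irradiated fibroblast feeders or on gelatin, and the labels do not tie either to a sample. The groups were Yaf2kd OHT+ (2 arrays), Yaf2wt OHT+ (1 array), Yaf2kd OHT- (2 arrays) and Yaf2wt OHT- (1 array). Yaf2wt OHT- cells thus keep both proteins, and Rybp and Yaf2 are homologous subunits of Polycomb repressive complex 1. Cells given the drug without loss of Rybp were not analysed here, so the drug and the depletion cannot be told apart. Only 1 Yaf2wt clone was measured, and an effect of Yaf2 and a difference between clones likewise cannot be told apart.

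As background, Rhox genes are expressed mainly in the testis, ovary, epididymis and placenta. DNA methylation is known to keep much of the cluster silent in cells of the embryo proper. Rhox5 (Pem), the founding member, is also expressed in embryonic stem cells and extraembryonic tissue, and in Sertoli cells under androgen control. Rhox6 and Rhox9 (Psx1 and Psx2) are close paralogues first described in the placenta and are also expressed in germ cells. Rhox13 is expressed in germ cells of the testis and fetal ovary. Whether the Rhox6 and Rhox9 probe sets each read a single gene was not tested.

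The RefSeq promoter table (GRCm38.p6) holds 2 of the 4 genes, Rhox5 and Rhox13, and not Rhox6 or Rhox9. Both windows, 250 bases before to 50 after the annotated start, are shown because promoter CG methylation is the known means of Rhox silencing. Capitals mark CG dinucleotides, and both lie on the plus strand, Rhox5 at chrX:37754358-37754657 and Rhox13 at chrX:38120590-38120889.
Rhox5: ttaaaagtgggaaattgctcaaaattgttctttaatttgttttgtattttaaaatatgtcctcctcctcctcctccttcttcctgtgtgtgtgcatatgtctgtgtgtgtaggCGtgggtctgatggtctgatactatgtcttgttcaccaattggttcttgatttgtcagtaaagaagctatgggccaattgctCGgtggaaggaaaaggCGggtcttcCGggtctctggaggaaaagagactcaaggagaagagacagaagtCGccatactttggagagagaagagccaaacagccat
Rhox13: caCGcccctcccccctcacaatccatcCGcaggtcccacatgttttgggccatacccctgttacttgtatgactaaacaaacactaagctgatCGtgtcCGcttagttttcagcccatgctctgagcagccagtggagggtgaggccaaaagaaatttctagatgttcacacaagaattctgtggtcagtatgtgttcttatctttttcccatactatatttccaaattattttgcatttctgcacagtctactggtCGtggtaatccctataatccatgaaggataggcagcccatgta
Each window held 5 CG dinucleotides, and 62% of the 32851 promoters of the table held at least as many. The letters GCGGGA (an E2F core) and CACGTG (an E-box), searched on both strands, were in neither window. Among all promoters 20% held the first and 7.15% the second. Rhox5 is known to have a distal and a proximal promoter, and the probe set does not tell which was used.

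The deposited values are linear intensities that were quantile normalized, with a median of 102 on every array. Differences are log2, OHT+ minus OHT- or Yaf2kd minus Yaf2wt. The targeted genes separated the arrays by their labels. The 2 Rybp probe sets, shared with the pseudogene Rybp-ps, were at 53.9 to 102 and at 2796 to 3443 on the OHT+ arrays. On the OHT- arrays they were at 1785 to 2262 and at 180 to 336, so they moved in opposite directions, and which of them lies in the deleted part was not tested. Both Yaf2 probe sets were lower in Yaf2kd than in Yaf2wt cells, the brighter at 238 to 297 on 4 Yaf2kd arrays against 769 and 816 on 2 Yaf2wt arrays. The stem cell identity of the cultures was checked on 9 markers. All 9, among them Pou5f1, Nanog, Sox2 and Zfp42, lay above the limit for dim probe sets (an intensity of 56.9, below which the dimmest 40% lie). With OHT 8 of 9 were higher, against 49.5% of all genes, and Pou5f1 was lower (-0.18 ± 0.20, log2 ± SE). Klf4 (0.90 ± 0.26) and Nanog (0.42 ± 0.14) had the largest differences of the 8. None of the 9 passed in the limma fits below over all probe sets, with or without an intensity trend.

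OHT+ against OHT- over the 3 clones asks how Rhox expression differs after the treatment that depletes Rybp. All 4 Rhox probe sets were brighter with OHT in each of the 3 clones. The mean log2 difference over the clones corresponds to 1.68-fold for Rhox5, 2.04-fold for Rhox6, 2.13-fold for Rhox9 and 3.93-fold for Rhox13. Of the brighter 60% of probe sets, 16.5% were higher with OHT in each clone, and of all probe sets 15%. Rhox13 rose in a limma fit with an intensity trend (adjusted p 0.00975), where 0.115% of all probe sets rose. With the clone as a block as well, a fit added after seeing the data, Rhox5 (adjusted p 0.0355) and Rhox13 (0.00411) passed. Rhox6 and Rhox9 did not pass in any fit run. In the limma fit without a trend no probe set passed. That fit also made no call on data simulated for this comparison with known differences, so its lack of calls does not show that no gene differs.

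Rhox5 intensity stood at 1332 in clone 3031, 1464 in clone 3086 and 2000 in clone 3087 with OHT, against 952, 782 and 1103 in the same clones without it. The lowest OHT+ array lay above the highest OHT- array, although the gap between 1332 and 1103 was small. These values placed Rhox5 between the 87.9th and the 91.6th percentile of all probe sets on the OHT+ arrays and between the 81.55th and the 85.8th on the OHT- arrays, so it was well detected in both conditions. The log2 difference was 0.75 ± 0.24 (SE, limma over all 45037 probe sets, 95% interval 0.10 to 1.40, adjusted p 0.719). It was the smallest mean difference of the 4 genes.

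Rhox6 intensity stood at 182 in clone 3031, 344 in clone 3086 and 337 in clone 3087 with OHT, against 110, 111 and 204 in the same clones without it. This was the 1 member whose groups overlapped. The OHT+ array of clone 3031 (182) lay below the OHT- array of clone 3087 (204), while within each clone OHT+ was the brighter array. Its fold was 3.10 in clone 3086, against 1.66 in clone 3031 and 1.65 in clone 3087. The log2 difference of Rhox6 was 1.03 ± 0.29 (SE, 95% interval 0.24 to 1.82, limma adjusted p 0.690).

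Rhox9 intensity stood at 292 in clone 3031, 357 in clone 3086 and 510 in clone 3087 with OHT, against 180, 158 and 193 in the same clones without it. Its groups did not overlap, and the spread over clones was wider with OHT (386.5 ± 112, SD, n = 3) than without it (177 ± 17.8, SD, n = 3). The log2 difference of Rhox9 was 1.09 ± 0.25 (SE, 95% interval 0.43 to 1.75, limma adjusted p 0.632).

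Rhox13 intensity stood at 383 in clone 3031, 506 in clone 3086 and 464 in clone 3087 with OHT, against 110, 143 and 94.3 in the same clones without it. The groups were widely separated, at 451 ± 62.9 with OHT and 116 ± 24.7 without it (SD, n = 3 each). Without OHT the signal sat between the 48.5th and the 56th percentile of the array, near the array median, so the size of the fold is less certain than its direction. With OHT it sat between the 71.6th and the 75.6th percentile.

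Rhox13 had the largest OHT difference of the 4 genes in every clone, 1.80 in clone 3031, 1.83 in clone 3086 and 2.30 in clone 3087 (log2). In the limma fit over all probe sets its difference was 1.98 ± 0.22 (SE, 95% interval 1.39 to 2.57). It stood 69th of 45037 by p (unadjusted p 5.69e-04, adjusted p 0.367). It was the 1 member over 2-fold brighter with OHT in each clone, as were 0.218% of the brighter 60% of probe sets and 0.797% of all.

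**Figure D1:**
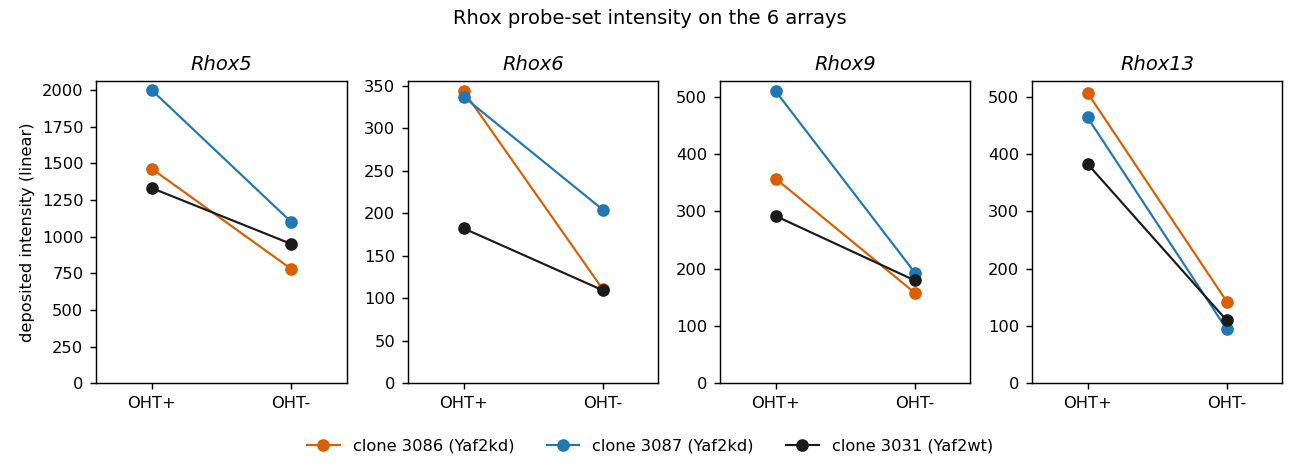
Deposited linear intensity of the 4 Rhox probe sets (y axis, from 0, a separate scale for each gene) on OHT+ and OHT- arrays, with a point per array and a line joining the arrays of a clone. Every line is higher at OHT+, and the OHT+ and OHT- points of Rhox6 overlap across clones at 182 and 204.

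The 3 members without overlap of the groups compare with 6.82% of the brighter 60% of probe sets and 6.13% of all. The limma fit over all 45037 probe sets called 0 of them for OHT, with 2956 at an unadjusted p under 0.05. All 4 Rhox probe sets were among the 3.37% that were higher at an unadjusted p under 0.05. An intensity trend lets the expected spread fall as the signal grows, and here the median residual SD was 0.97 (log2) for the dimmest 40% and 0.21 for the other probe sets. With the trend 63 probe sets passed, 52 higher and 11 lower, which is 0.14% of all tested, and Rhox13 was among them. Without the dimmest 40% of probe sets 9 passed (0.0333%), and with an offset of 50 added to each intensity 6 passed (0.0133%), Rhox13 in neither case (adjusted p 0.0924 and 0.0786). With 1 probe set per gene and the dimmest 40% of genes left out, 38 of 10916 genes passed (0.348%), Rhox13 among them (adjusted p 0.00931). With both the trend and the clone as a block 101 probe sets passed (0.224%), 73 higher and 28 lower, and the adjusted p was 0.191 for Rhox6 and 0.0792 for Rhox9. In the fit with a trend and no block the adjusted p was 0.226 for Rhox5, 0.307 for Rhox6 and 0.169 for Rhox9.

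The Rhox13 call was not kept in every fit that left out 1 array, and these fits had 2 residual degrees of freedom in place of 3. In the fit with a trend it was lost without the Yaf2wt OHT+ array (adjusted p 0.180), the OHT+ array of clone 3086 (0.127), the OHT+ array of clone 3087 (0.0793) or the Yaf2wt OHT- array (0.115). It was kept without the OHT- array of clone 3086 (0.0107) or of clone 3087 (0.0125). The Rhox13 difference lay between 1.78 and 2.12 over these single-array omissions. Without either Yaf2wt array it was 2.06, the same as in the Yaf2kd cells alone, since the Yaf2 covariate then takes up the other Yaf2wt array. Dependence on an array and the loss of degrees of freedom cannot be told apart here. Exact sign permutation over 3 clones cannot give a two-sided p below 0.25. In bulk RNA, more cells with Rhox RNA and more Rhox RNA per cell cannot be told apart.

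The residual SD of Rhox13 (0.26, log2) was close to the median of 0.25 for the 999 probe sets nearest to it in mean signal. Rhox5 varied more than probe sets of like signal, with a residual SD of 0.30 against 0.14. Rhox6 (0.39 against 0.25) and Rhox9 (0.31 against 0.23) lay above theirs as well. The OHT difference of each member was larger than that of at least 99.4% of the probe sets of like signal.

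OHT in the Yaf2kd cells alone compares 2 arrays with 2. Rhox5 averaged 1732 ± 379 with OHT and 942.5 ± 226.5 without it, Rhox6 340.3 ± 4.75 and 157 ± 66.1, Rhox9 434 ± 108 and 176 ± 25.0, and Rhox13 485 ± 30.3 and 118.5 ± 34.2 (SD, n = 2 each). The 2 OHT+ arrays were above the 2 OHT- arrays for all 4 genes. The share of all probe sets with this order was not taken for 2 arrays against 2, so the count is only a description. The log2 differences were 0.88 ± 0.32, 1.18 ± 0.39, 1.29 ± 0.30 and 2.06 ± 0.30 (SE) in the same order of genes. The 95% interval of Rhox5 spanned 0 (-0.07 to 1.84), and that of Rhox6 ran from 0.02 to 2.34. None of the 4 passed, with limma adjusted p between 0.465 for Rhox13 and 0.848 for Rhox5. Limma called 0 probe sets here (0%), with 2759 at an unadjusted p under 0.05, and with a trend 17 (0.0377%), no Rhox gene among them. With 1 probe set per gene and no dim genes 5 genes passed (0.0458%).

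In the Yaf2wt clone the comparison rests on 1 array against 1, with no test. The fold with OHT was 1.40 for Rhox5, 1.66 for Rhox6, 1.63 for Rhox9 and 3.48 for Rhox13. All 4 were higher, as were 48.3% of the brighter 60% of probe sets. Over 1.3-fold higher were 12.1% of the brighter 60% of probe sets, and over 2-fold 1.5%. Rhox13 was the 1 member in the second class.

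Yaf2kd against Yaf2wt with OHT compares 2 clones with 1. Both Yaf2kd OHT+ arrays were above the Yaf2wt OHT+ array for all 4 genes, as were 36.6% of the brighter 60% of probe sets. The log2 differences were 0.36 ± 0.39 for Rhox5, 0.90 ± 0.48 for Rhox6, 0.55 ± 0.36 for Rhox9 and 0.34 ± 0.37 for Rhox13 (SE). Each limma adjusted p was 0.992, and limma called 0 probe sets (0%), with 2452 at an unadjusted p under 0.05, and 0 with a trend. For Rhox6, the largest of these, the 95% interval ran from -0.52 to 2.32.

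Without OHT, Yaf2kd against Yaf2wt gave -0.04 ± 0.39 for Rhox5, 0.46 ± 0.48 for Rhox6, -0.04 ± 0.36 for Rhox9 and 0.08 ± 0.37 for Rhox13 (log2 ± SE). The Yaf2wt OHT- array lay between the 2 Yaf2kd OHT- arrays for Rhox5, Rhox9 and Rhox13, and just below both for Rhox6. The 95% intervals reached from -1.20 to 1.13 for Rhox5, from -1.12 to 1.04 for Rhox9 and from -1.03 to 1.19 for Rhox13, so a difference of about 2-fold in either direction was within them. Limma called 0 probe sets (0%), with 2545 at an unadjusted p under 0.05, and 0 with a trend.

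Whether the OHT difference depends on Yaf2 was tested with the interaction term, the OHT effect in Yaf2kd cells minus that in Yaf2wt cells. It was 0.40 ± 0.56 for Rhox5, 0.44 ± 0.68 for Rhox6, 0.59 ± 0.52 for Rhox9 and 0.26 ± 0.53 for Rhox13 (log2 ± SE), each with a limma adjusted p of 1. Limma called 0 probe sets (0%), with 2289 at an unadjusted p under 0.05, and 0 with a trend. The fold was larger in both Yaf2kd clones than in the Yaf2wt clone for Rhox5, Rhox9 and Rhox13. The same held for 30.8% of the brighter 60% of probe sets, and for 40.7% of those among them that were higher with OHT in each clone.

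**Figure D2:**
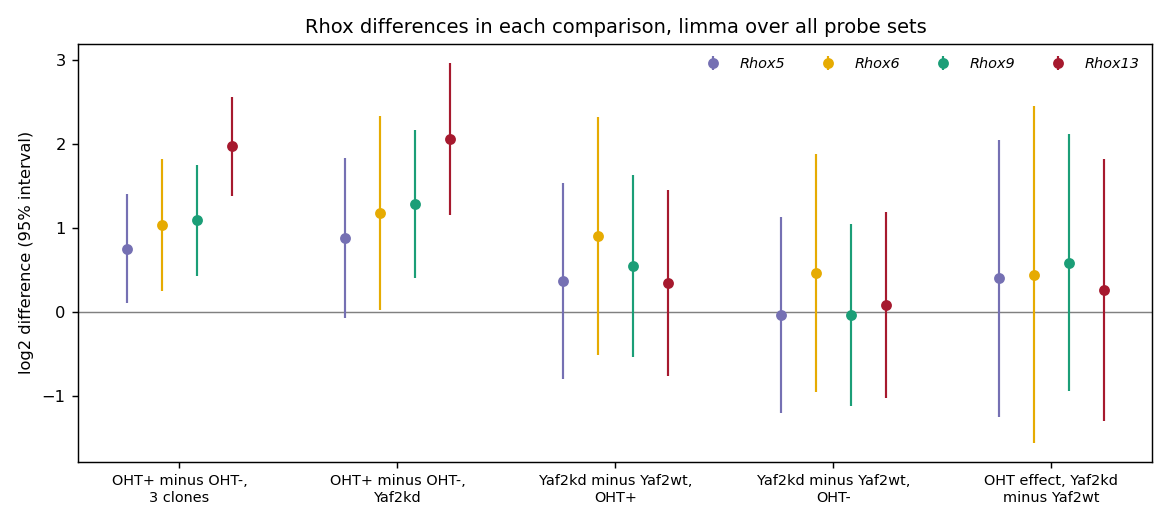
Log2 difference of each Rhox gene (points) with its 95% interval (bars) in 5 limma comparisons over all probe sets, named on the x axis with the group on top of the difference first. The intervals for OHT over the 3 clones lie above 0. For OHT in Yaf2kd cells that of Rhox5 spans 0, and those of Rhox6, Rhox9 and Rhox13 lie above it. The intervals of both Yaf2 comparisons and of the difference of the OHT effects span 0.

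The OHT difference was also read for the genes around the cluster. The 6 nearest measured protein-coding genes on each side of the annotated Rhox genes were taken, 9 of the 12 of them above the dim limit in either condition. With OHT 3 of the 12 were higher and 9 were lower. Their median was -0.08 (log2), and 0 passed limma with or without a trend. In 1 of the 12 the OHT+ arrays were all above the OHT- arrays and in 3 all below, against 7.5% and 7.11% of all genes. Among all genes the median was -0.003 and 49.5% were higher. Rpl39, a ribosomal protein gene, was at 630 with OHT and 382 without it (mean, n = 3 each), a difference of 0.68 ± 0.22 that did not pass (adjusted p 0.722). C1galt1c1, the chaperone gene of an O-glycosylation enzyme, was at -0.47 ± 0.23, the transcription regulator gene Nkap at -0.27 ± 0.13 and the zinc finger gene Rnf113a1 at -0.20 ± 0.14 (log2 ± SE). Zbtb33, which encodes the methyl-CpG-binding protein Kaiso and lies within the span of the annotated Rhox genes, was at 0.07 ± 0.14. Tmem255a, the other measured gene within that span, was below the dim limit, at 1.01 ± 0.93. Over the 355 other X-linked genes of higher signal the median was -0.01, and 48.5% were higher with OHT.

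**Figure D3:**
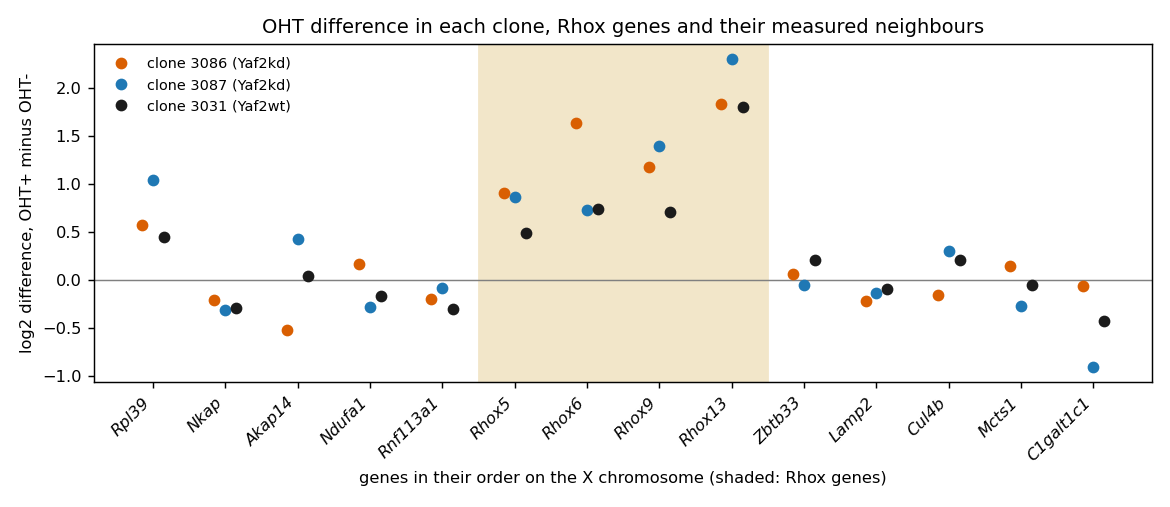
OHT difference (log2, OHT+ minus OHT-) in each clone for the Rhox genes (shaded) and the genes around them that lie above the dim limit, in their order on the X chromosome. The 4 Rhox genes are above 0 in each clone, as is Rpl39, and the other neighbours lie within 1 of 0.

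Germline genes whose promoters are known to carry DNA methylation in somatic cells were taken as the class that Rhox genes are usually grouped with. All 20 measured of 22 were higher with OHT, with a median of 1.50 (log2). Of these 20, 18 were above the dim limit in either condition, so the count and the median also hold genes of low signal. In 16 of the 20 the OHT+ arrays were all above the OHT- arrays, against 7.5% of all genes, and in none were they all below, against 7.11%. With a trend 11 rose and 0 fell, where 0.187% of all genes rose and 0.0275% fell. The list was chosen with earlier results of these data known, so these counts are a description and no independent evidence. The largest differences were those of Slc25a31, a germ cell ADP/ATP carrier gene (2.42 ± 0.28), the meiotic gene Tex11 (2.39 ± 0.26), the synaptonemal complex gene Syce1 (2.23 ± 0.15) and the piRNA pathway gene Asz1 (2.16 ± 0.89, did not pass). The difference of Rhox13 (1.98) lay below these 4 and above the median of the list, and those of Rhox5, Rhox6 and Rhox9 lay below the list's median.

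A second list held X-linked germline genes. It also held Sycp3, which lies on chromosome 10, and it shared Tex11 and Taf7l with the first list, and both of these rose with a trend. Of the other 7 measured members 4 were above the dim limit, Tex13b, Nxf2, Usp26 and Fthl17a, with differences of 0.57 to 1.15. The 3 below it, Tktl1, Magea5 and Tex16, were at 0.29 ± 0.42, 0.05 ± 0.35 and 0.01 ± 0.25 (log2 ± SE). None of the 7 passed, and their median was 0.57, against -0.003 over all genes. Tex13b was at 1.15 ± 0.35 and the RNA export factor gene Nxf2 at 0.96 ± 0.22 (log2 ± SE).

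Genes for repressors reported at germline promoters were read as a list that also held Tet genes, which encode methylcytosine dioxygenases. Above the dim limit in either condition were 23 of 23. With OHT 10 were higher and 13 were lower. The median was -0.02 (log2), and 0 passed with or without a trend. In 3 of the 23 the OHT+ arrays were all above the OHT- arrays (13%), against 7.5% of all genes. In another 3 they were all below, against 7.11%. Dnmt3l, a cofactor of de novo DNA methylation, was at 6885 with OHT and 5146 without it, a difference of 0.42 ± 0.14. The de novo methyltransferase gene Dnmt3b was at -0.30 ± 0.14, the methylcytosine dioxygenase gene Tet2 at 0.32 ± 0.21 and the histone deacetylase gene Hdac2 at 0.23 ± 0.13.

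**Figure D4:**
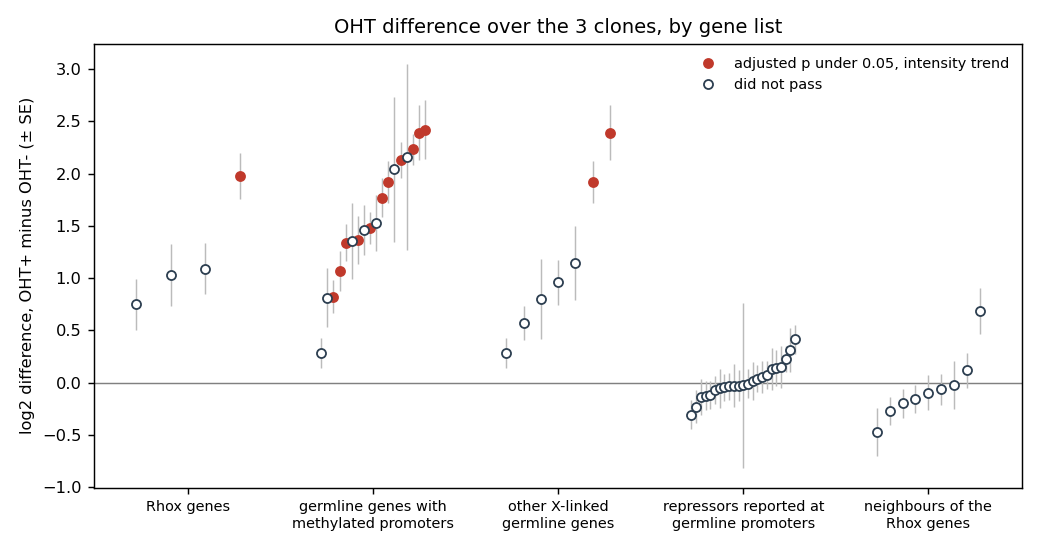
OHT difference over the 3 clones (log2 ± SE of the fit without a trend) for each gene above the dim limit, by list, with filled points for genes at an adjusted p under 0.05 in the fit with an intensity trend. Rhox13 is the 1 filled Rhox gene, 11 germline genes are filled (Tex11 and Taf7l again in the X-linked list), and no repressor gene or neighbour is.

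The genes with the profile most like each member over the 6 arrays were found by the smallest Euclidean distance between log2 profiles centred on their means, among 10912 genes of higher signal. For Rhox13 they were Dazl, which encodes an RNA-binding protein of germ cells (distance 0.42), the cardiac myosin gene Myh6 (0.50), the adenylate cyclase gene Adcy7 (0.54), Syce1 (0.56) and Tex11 (0.62). For Rhox5 they were the mesoderm transcription factor gene Mesp1 (0.14), the X-linked kinase gene Nrk (0.20), the meiotic recombination gene Rec114 (0.20), Vill (0.21) and the histidine ammonia-lyase gene Hal (0.29). For Rhox6 the nearest was Sohlh2, a germ cell transcription factor gene (0.37), followed by Nmi, Fabp5, Gjb5 and Mgarp (0.44 to 0.55). For Rhox9 they were Rec114 (0.44), Hal (0.44), the imprinted cell cycle inhibitor gene Cdkn1c (0.47), Sohlh2 (0.47) and AU015836 (0.48). Among the members, Rhox5 and Rhox9 were nearest to each other (0.47), and Rhox5 and Rhox13 were farthest apart (1.74).

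Markers of cells that express Rhox genes or could be in the culture were read on the same arrays. Of the trophoblast markers 3 of 10 measured were higher with OHT, and their summed intensity stood at 3442 to 4647 on OHT+ arrays and 3483 to 4068 on OHT- arrays. The trophoblast genes Cdx2, Elf5, Gata3 and Tpbpa were below the dim limit. Of the 6 above it, Tfap2c was at 881 to 1958 with OHT and 1099 to 1536 without it, Eomes at 93.1 to 144 and 117 to 180, and Hand1 at 70.0 to 128 and 91.5 to 124. The keratin gene Krt7 was at 0.87 ± 0.20 and Ascl2 at 0.67 ± 0.21 (log2 difference ± SE), and Krt8 at -0.16 ± 0.14. For Krt7 and Ascl2 the OHT+ arrays were all above the OHT- arrays, as for 7.5% of all genes. The same held for markers of other lists, among them Nanog, Pdgfrb and Inhbb. Wt1 was among those with the reverse order, as were 7.11% of all genes. Most of the trophoblast sums was Tfap2c and Krt8. Of 8 primitive endoderm markers 4 were higher, with sums of 857 to 963 with OHT and 927 to 1041 without it. Afp and Ttr were below the dim limit. Sertoli and gonadal somatic markers were higher in 2 of 7, with sums of 476 to 622 with OHT and 478 to 666 without it, and Amh was below the dim limit. Inhbb was at 0.86 ± 0.29 and Wt1 at -0.64 ± 0.23 (log2 difference ± SE), so these sums hide differences in both directions. Fibroblast markers, read because feeder cells may be present, were higher in 9 of 10, against 49.5% of all genes, with a median of 0.47. Their sums were at 11600 to 12600 with OHT and 9767 to 12860 without it. Most of these sums was Fn1, at 9283 to 10850 with OHT and 8127 to 11460 without it. Fn1 was the 1 marker not higher (-0.03 ± 0.18), so the sums say little about the others. Lum and Dcn were below the dim limit. Pdgfrb was at 1.34 ± 0.29, with intensities of 169 to 254 with OHT and 61.4 to 101 without it. Of 4 measured genes that mark sex and X dosage 2 were higher, and Xist was at 383 to 679 with OHT and 550 to 581 without it, and the Y-linked Eif2s3y at 671 to 973 and 776 to 882. In none of these lists did a member pass limma, with or without a trend, and their part in the Rhox differences was not tested.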

How the data were processed

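The authors' deposited values are linear intensity values per probe set. Per the submitters' processing notes, Affymetrix Expression Console and RMA were used, with roles and versions not given in the sources used here. All arrays hold the same sorted values. Of 45101 probe sets, 64 controls were left out, and log2 of the intensity was used with no pseudocount. Limma 3.58.1 (lmFit, eBayes, two-sided) in R 4.3.3 was fitted to 45037 probe sets with Benjamini-Hochberg adjustment and a threshold of 0.05. OHT over the 3 clones used Yaf2 status as covariate, and the other comparisons a model of 4 groups, in which the spread of the single Yaf2wt arrays is taken to equal that of the Yaf2kd pairs. The fit of OHT over the 3 clones was checked on simulated data with known differences, and the other comparisons were not. Over all probe sets without a trend it made no calls on the simulated data. With a trend or without dim probe sets it recovered a part of the known differences. The labels tie OHT+ and OHT- arrays by clone, so clone pairs them, and the deviations of same-clone Yaf2kd arrays correlated at r = 0.13. Nothing else says that arrays are separate cultures, so p-values measure the spread between these arrays. No batch is labelled. The number of arrays limits the precision. For each gene in the lists the brightest probe set was read.

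The members and lists were chosen with earlier results of these data known. The rule for named genes took all Rhox probe sets, Rybp and Yaf2, up to 4 detected genes per list by size of the OHT difference, and the 5 most like profiles per member. Zbtb33, Tmem255a, Usp26, Fthl17a, Tktl1, Magea5, Tex16, Klf4, Tfap2c, Eomes, Hand1, Krt7, Krt8, Ascl2, Inhbb, Wt1, Fn1, Pdgfrb, Xist and Eif2s3y were named after their values were seen. Alternatives were the gene as unit, dim probe sets left out, an intensity trend, an offset of 50, the clone as a block, and arrays or clones left out.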

Additional observations from a re-analysis of the deposited data

How the results depend on the processing

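The 24 alternatives for OHT over the 3 clones gave only 9 distinct log2 differences for each Rhox gene, since a trend, a filter or a block cannot change the difference. All were above 0, at 0.57 to 0.88 for Rhox5, 0.73 to 1.24 for Rhox6, 0.89 to 1.29 for Rhox9 and 1.60 to 2.12 for Rhox13. Rhox13 passed in 6 of the 24, at 1.98 with an intensity trend, with a trend and the clone as a block (adjusted p 0.00411) and in both fits of 1 probe set per gene without the 40% dimmest genes (adjusted p 0.00931, and 0.00541 with the clone as a block). The other 2 passes were among the fits with a trend that leave out 1 array (1.78 to 2.12). Rhox5 passed in 1, at 0.75 with a trend and the block (adjusted p 0.0355). The fits per gene without dim genes, with a trend and a block, and with a trend and 1 array left out were chosen after seeing the data. The count called for OHT over the 3 clones was 0 in the fit over all probe sets and 0 without any single array. It was 9 without the 40% dimmest probe sets, 6 with an offset of 50, 63 with a trend, 101 with a trend and the clone as a block, and 14 to 53 with a trend and 1 array left out. With 1 probe set per gene and no dim genes it was 38, and 64 with the clone as a block. The block also took the 9 to 0, and over all probe sets it left 0 called (Rhox13 1.98, adjusted p 0.611). In Yaf2kd cells the count was 17 with a trend and 5 with 1 probe set per gene and no dim genes. With an offset of 50 the Rhox13 difference in the Yaf2wt clone was 1.44. Leaving out 1 array turned the sign of the Yaf2 effect without OHT for Rhox5 (-0.28 to 0.21), Rhox9 (-0.18 to 0.11) and Rhox13 (-0.22 to 0.38), with Rhox6 at 0.015 to 0.90, and of the difference of the OHT effects for Rhox13 (-0.037 to 0.56), with Rhox6 at 0.0019 to 0.88. None of these passed, and fewer arrays were fitted there. The cause of the other changes was not tested. Without a lone Yaf2wt array the comparisons that need it could not be fitted. Low signal limits the fold of Rhox6 and Rhox13 without OHT.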
